A study of Homo sapiens with 2 samples.

Results

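The 10 genes described here encode components of the Notch pathway. They are the receptors NOTCH1, NOTCH2 and NOTCH3, the ligands JAG1, JAG2 and DLL1, the receptor-modifying enzyme LFNG, the coactivator MAML2 and the target genes HES1 and HEY1. A probe set was taken as a reading of one of these genes where the platform annotation gave it that gene symbol and no other. This gave 31 probe sets for all 10 genes, out of 49495 probe sets on the array and 18244 genes with a probe set of their own.

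The cells were MDA-MB-231, an established line from a human breast carcinoma. A clone in which UGT8 had been stably knocked down gave 1 array, and parental cells, the control, gave the other. UGT8 encodes the ceramide galactosyltransferase, which makes galactosylceramide. How the knockdown was made, and whether the control carried a vector, is not given in the sources used here. Cultures of either group received DMEM with 5.6 mmol/L glucose and were harvested 48 h after passage. Because the knockdown cells were 1 clone and the control was the parental line, a difference between clones and an effect of the knockdown cannot be told apart. With 1 array per group there is no replicate check, no difference was tested, and every difference describes this pair of arrays. The number of arrays limits the precision.

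Notch receptors are cut in the secretory pathway, modified by sugars on their EGF-like repeats, and displayed at the cell surface. A Jagged or Delta-like ligand on a neighbouring cell pulls on the receptor, which lets ADAM10 and then gamma-secretase cut it and frees the intracellular domain. In the nucleus this domain joins the DNA-binding protein RBPJ and a Mastermind-like coactivator and switches on HES and HEY genes, which encode transcriptional repressors. In breast carcinoma the pathway is known for roles in growth, survival and spread.

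All values are deposited log2 levels, and a difference is the level on the knockdown array minus that on the control array. A gene was read by its brightest probe set, the one whose levels on the 2 arrays had the highest mean, and for the 10 genes every other probe set is given beside it. A floor of 6.64, the median mean level of all probe sets other than controls, separated brighter from dimmer readings and left 10439 genes at or above it. The median difference of these genes was 0.03. UGT8 was lower in all 3 of its probe sets, the brightest reading 8.95 in the control and 6.61 in the knockdown cells. The hybridisation control RNAs read higher on the knockdown array, with a median difference of 0.51, and the poly-A control RNAs did so by 0.07. Each direction below is on the deposited scale, and centring on the hybridisation controls would lower every difference by 0.51 and move the median of all genes to -0.48. As a sign of RNA quality, the 3' signal exceeded the 5' signal of ACTB by 0.49 in the control and by 0.90 in the knockdown, and that of GAPDH by 0.18 and 0.19. The line's high markers VIM, CD44, KRT18 and EGFR read between 9.39 and 13.9 on both arrays, and its low markers ESR1 and PGR lay below the floor, whereas ERBB2 and CDH1 read between 7.66 and 8.73. Of 8 fibroblast markers, 3 were at or above the floor and LUM and COL3A1 were lower by at least 1.5-fold, and the summed signal on the linear scale was 838 in the control and 465 in the knockdown cells. Of 6 endothelial markers, 2 were at or above the floor with PECAM1 lower (-1.09), the sum being 639 and 417, and of 5 measured leukocyte markers 2 were, with CD14 lower (-0.73) and sums of 897 and 883. DCN, PDGFRA and FAP of the fibroblast markers, CDH5, TEK and ERG of the endothelial markers, and PTPRC and LYZ of the leukocyte markers read at or below the mean of the background probe sets (4.73) on both arrays. The part of these readings in the Notch differences was not tested.

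MAML2, DLL1 and LFNG were lower on the knockdown array by at least 1.5-fold, and none of the 9 Notch genes at or above the floor was higher by that much. Over all 10439 genes, 6.74% were lower and 4.96% higher by at least 1.5-fold. At 2-fold, MAML2 was the 1 gene of these 9 that was lower, where 1.54% of all genes were lower and 0.738% higher. Differences below 0 were read for 7 of the 9 genes, against 45.8% of all genes, while NOTCH3 and JAG2 lay above 0 and both turned below it when centred on the hybridisation controls. The median difference of the 9 genes was -0.50. Read singly, 14 of their 18 probe sets at or above the floor were lower, against 47.4% of such probe sets of all genes. The Notch genes were chosen with earlier results of these data known. The contrasts with all genes therefore cannot tell a shift of the group from the choice of its genes. HEY1, the remaining gene, was below the floor on both arrays. These are readings of bulk RNA, in which fewer cells expressing a gene and less of its RNA per cell cannot be told apart.

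**Figure D1:**
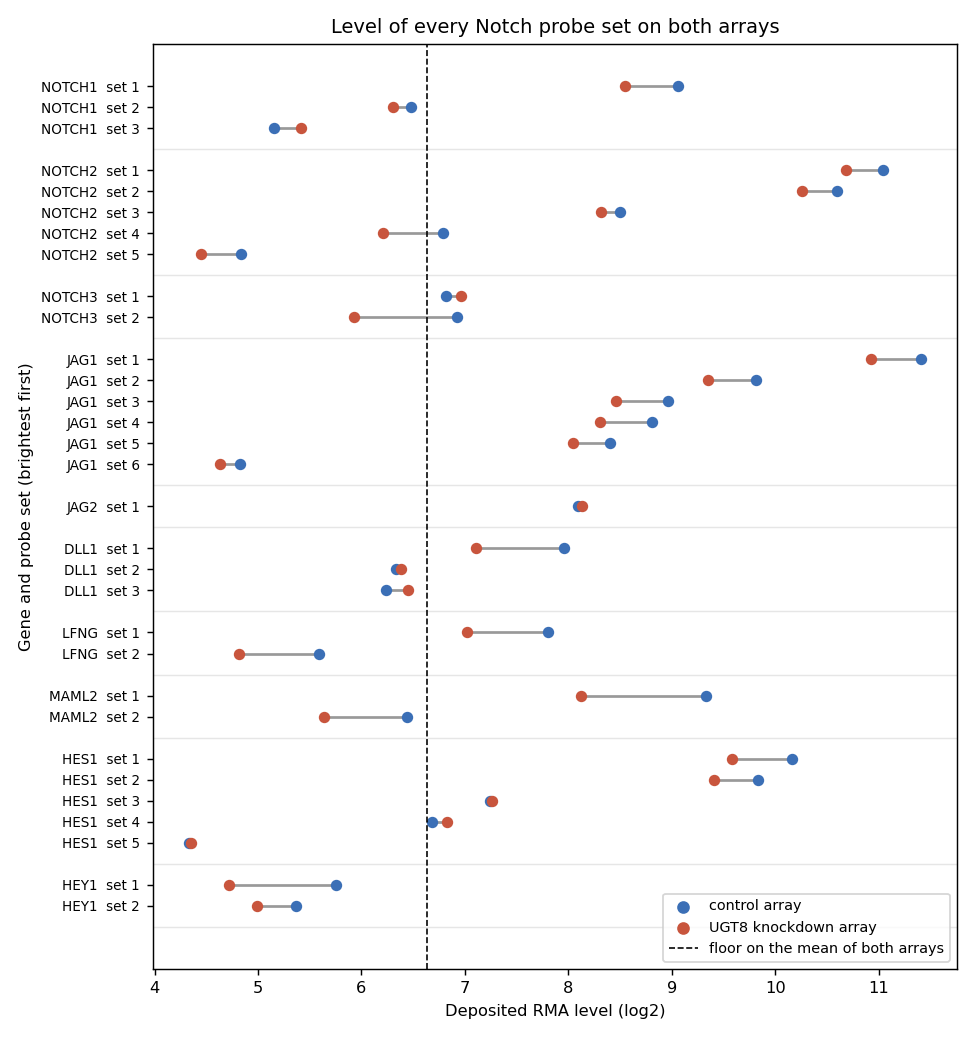
Deposited log2 level (horizontal axis) of all 31 probe sets of the 10 Notch genes, listed by gene with the brightest first. Blue points are the control array and red points the knockdown array, and the dashed line is the floor of 6.64. Red lies left of blue in 23 of the 31 probe sets, with the longest line at MAML2 (9.33 to 8.12).

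Among the receptors, NOTCH1 and NOTCH2 were lower by less than 1.5-fold, and the probe sets of NOTCH3 disagreed. NOTCH1, a receptor with roles in many epithelial and blood lineages, read 9.05 in the control and 8.55 in the knockdown cells with its brightest probe set, a difference of -0.50. This left 70.6% of the control signal. Its 2 other probe sets were below the floor and went from 6.48 to 6.30 (-0.17) and from 5.15 to 5.42 (0.26). The lower reading of NOTCH1 thus rests on its brightest probe set, and the mean over all 3 was -0.14.

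NOTCH2, a receptor close in structure to NOTCH1, was read by 5 probe sets, all of them lower on the knockdown array. The brightest went from 11.04 to 10.68 (-0.35), and the 2 others at or above the floor went from 10.60 to 10.26 (-0.34) and from 8.50 to 8.32 (-0.18). The dimmer pair differed by -0.58 and -0.39. The mean difference was -0.37 ± 0.14 (SD among these 5 probe sets, which is no replicate error).

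NOTCH3, a receptor best known from vascular smooth muscle and also expressed in breast carcinoma, had 2 probe sets of similar mean level. The brighter one went from 6.82 in the control to 6.96 in the knockdown cells (0.14). The other went from 6.92 to 5.93, a difference of -0.99 that left 50.2% of the control signal. Both lay close to the floor, one above it and one below. No direction can be given for NOTCH3 from these readings.

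Of the ligands, JAG1 was lower in every probe set, JAG2 differed little, and DLL1 was lower in its brightest probe set only. JAG1, a Jagged-type ligand, had 6 probe sets, 5 of them at or above the floor. The brightest went from 11.40 to 10.92 (-0.48), the next from 9.82 to 9.35 (-0.46), and the others at or above the floor differed by -0.50, -0.50 and -0.36. The dim one went from 4.82 to 4.63 (-0.19). The names of the brightest and dimmest probe sets, and of that going from 8.81 to 8.31, mark possible cross-hybridisation. Without such probe sets the difference of JAG1 was -0.46. The 5 brighter readings had a mean of -0.46 ± 0.06 (SD over these probe sets, which is no replicate error). This was the closest match among the members with at least 3 probe sets at or above the floor. None of them reached 1.5-fold.

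JAG2, the second Jagged-type ligand, had 1 probe set, which read 8.09 in the control and 8.13 in the knockdown cells. Its difference of 0.04 was close to the median of all genes, and 51.5% of genes had a lower one.

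DLL1, a Delta-like ligand, went from 7.96 to 7.11 in its brightest probe set, a difference of -0.85 that left 55.4% of the control signal. In its 2 other probe sets, both below the floor, the levels were 6.33 and 6.38 (0.05) and 6.24 and 6.45 (0.21). The single lower reading was thus not shared by the dimmer probe sets, and the mean over all 3 was -0.20.

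**Figure D2:**
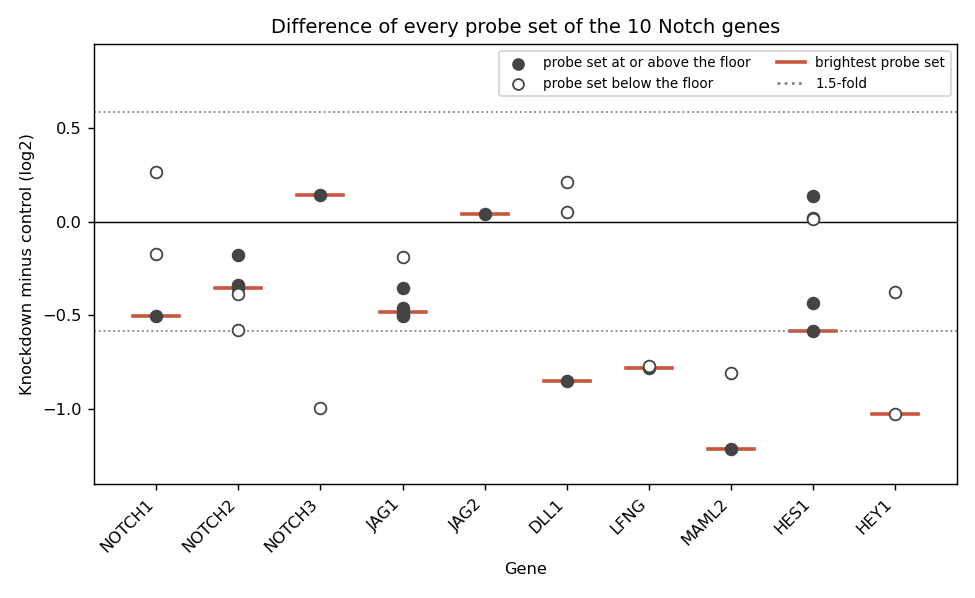
Difference between knockdown and control array (log2, vertical axis) for each probe set of the 10 Notch genes. Filled points are probe sets at or above the floor, open points are below it, red bars mark the brightest probe set of each gene and dotted lines mark 1.5-fold. NOTCH1, NOTCH3, DLL1 and HES1 have probe sets on both sides of 0, and JAG1, NOTCH2, LFNG, MAML2 and HEY1 have all of theirs below it.

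LFNG, the lunatic fringe enzyme that adds N-acetylglucosamine to O-fucose on the EGF-like repeats of Notch receptors and thereby shifts their response to ligands, was lower in both probe sets. The brighter went from 7.80 to 7.02 (-0.78), which left 58.1% of the control signal. The dimmer went from 5.59 to 4.82 (-0.77), a knockdown reading near the background mean of 4.73. The differences of this pair were 0.01 apart on the log2 scale.

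MAML2, a Mastermind-like protein that recruits acetyltransferases to the complex of Notch and RBPJ, had the largest difference of the 10 genes by the brightest probe set. It went from 9.33 in the control to 8.12 in the knockdown cells, a difference of -1.21 that left 43.1% of the control signal. Of the 10439 genes at or above the floor, 87 had a lower difference (0.833%). Its dimmer probe set went from 6.44 to 5.63 (-0.81). Both readings of MAML2 were thus lower by at least 1.5-fold. The related coactivator genes did not share this size of difference, with MAML1 at 0.11 (10.01 and 10.12) and MAML3 at -0.47 (7.61 and 7.14) in their brightest probe sets. The dimmer ones, all below the floor, read -0.04 for MAML1 and between -0.16 and 0.07 for MAML3.

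HES1, a basic helix-loop-helix repressor and a direct target of Notch, went from 10.16 to 9.58 in its brightest probe set, whose name marks possible cross-hybridisation. The difference of -0.5843 lay just short of 1.5-fold, which is a size of 0.5850, and passed it when centred on the median, by loess or on the poly-A controls. The difference of HES1 shrank to -0.43 without probe sets so marked, and to -0.21 with the mean over those at or above the floor. The second probe set, with no such mark, went from 9.83 to 9.40 (-0.43). Of the 3 dimmer ones, those at or above the floor went from 7.24 to 7.26 (0.02) and from 6.68 to 6.82 (0.14), and the last read 4.34 and 4.35 (0.01). The pair of bright HES1 probe sets was lower and the dimmer ones lay near 0, so that the mean over all 5 was -0.17.

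HEY1, a related repressor, was below the floor in both probe sets. One went from 5.75 to 4.72 (-1.03), a knockdown level near the mean of the background probe sets (4.73), which ranged from 2.76 to 11.2. The true size of the difference cannot be told from this probe set. The other went from 5.36 to 4.99 (-0.37). Both were lower, at levels where the array separates signal from background poorly.

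RBPJ binds DNA at sites with the core TGGGAA. This core was in the start regions of 2 of the 8 genes that could be read, HES1 and LFNG. Windows of 300 bases, from 250 before to 50 after a transcript start, were read on both strands from RefSeq (GRCh38.p14). For 8 of the 10 genes there was a window; DLL1 and HEY1 had none. NOTCH1, NOTCH2, NOTCH3, JAG1, JAG2 and MAML2 had no match in their windows. Over all 35116 windows, 24.0% held the core at least once and 3.80% at least 2 times, so a single match is common. The longer form GTGGGAA, which contains the core and so overlaps it, was in 6.25% of windows. The stretches from 200 bases before the start through its first 10 bases are shown for HES1 and LFNG, which read lower, and for HES4 and HEYL, target genes with the core that differed by less than 0.1 in their brightest probe sets. Capitals mark the core or its reverse complement TTCCCA. HES1 lies at chr3:194135948-194136157 (+ strand), the LFNG start at chr7:2512329-2512538 (+ strand), HES4 at chr1:1000088-1000297 (- strand) and HEYL at chr1:39639634-39639843 (- strand).
HES1: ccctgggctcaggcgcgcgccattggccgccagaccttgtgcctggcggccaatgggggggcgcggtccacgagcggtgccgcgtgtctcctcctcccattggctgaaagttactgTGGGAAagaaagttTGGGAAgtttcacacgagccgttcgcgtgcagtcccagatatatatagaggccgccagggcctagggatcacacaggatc
LFNG: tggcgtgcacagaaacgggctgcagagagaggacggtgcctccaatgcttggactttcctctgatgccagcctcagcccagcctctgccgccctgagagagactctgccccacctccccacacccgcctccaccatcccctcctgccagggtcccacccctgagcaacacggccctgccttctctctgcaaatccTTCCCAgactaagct
HES4: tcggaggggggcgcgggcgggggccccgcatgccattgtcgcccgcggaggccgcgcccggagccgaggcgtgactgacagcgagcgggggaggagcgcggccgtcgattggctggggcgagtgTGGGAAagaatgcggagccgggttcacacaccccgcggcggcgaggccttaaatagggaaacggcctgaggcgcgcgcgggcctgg
HEYL: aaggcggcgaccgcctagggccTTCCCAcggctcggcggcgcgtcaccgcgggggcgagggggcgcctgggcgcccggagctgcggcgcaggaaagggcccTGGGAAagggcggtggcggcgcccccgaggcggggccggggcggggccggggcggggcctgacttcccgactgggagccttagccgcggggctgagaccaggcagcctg

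The HES1 stretch held a pair of cores in the same direction, whose first bases lie 84 and 70 bases before the start. The first of them, but not the second, was part of a GTGGGAA match. The LFNG stretch held 1 core in reverse whose first base lay 5 bases before the start, so that the core ran across the start. The window of a second LFNG start held 1 core whose first base lay 248 bases before that start. HES4 had 1 core 76 bases before its start, and HEYL had 1 in reverse 178 bases before and 1 forward 99 bases before. Of the 16 windows of target genes, 6 held the core, each of a different gene among 11, and the GATA3 match was in 1 of the 6 windows of that gene. Of these genes, HES1 differed by -0.58, GATA3 by -0.22, HES4 by -0.07 and HEYL by 0.09, whereas HES5 (0.05) and HEY2 (0.14) were below the floor. The 5 genes without it differed by between -0.38 (HES7) and 0.25 (HES6). A match is a description of the letters and no evidence of binding, and target genes with and without the core overlapped in their differences.

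In the wider pathway the 3 lower genes were not joined by most others. The lists of pathway genes by role held 87 genes, of which 83 had a probe set of their own and 69 were at or above the floor. Of these 69, 7 were lower by at least 1.5-fold and 2 were higher, and the median difference was -0.04. Without the 10 genes above, the median of the remaining 60 was -0.02, with 4 lower and 2 higher by at least 1.5-fold, against 6.74% and 4.96% of all genes.

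**Figure D3:**
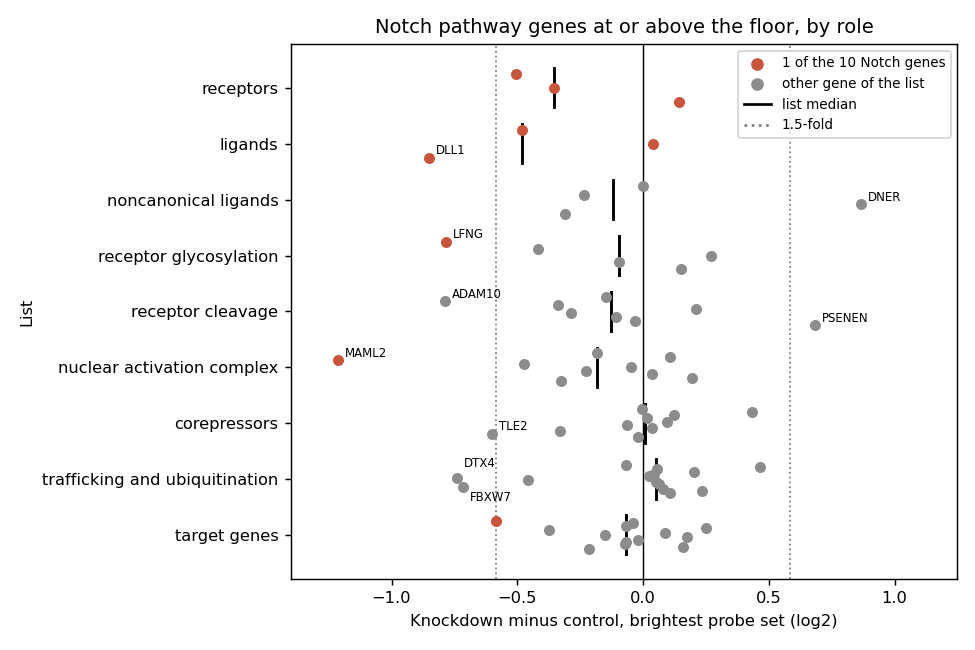
Difference between knockdown and control array (log2, horizontal axis) of each Notch pathway gene at or above the floor, read by its brightest probe set and grouped by role. Red points are among the 10 Notch genes, grey points are other list genes, black bars are list medians and dotted lines mark 1.5-fold. The named genes are those past 1.5-fold, 7 lower and 2 higher.

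For the enzymes that cut the receptor, 6 of the 8 genes at or above the floor were below 0, with a median of -0.13. ADAM10, the protease that makes the ligand-induced cut, was lower in all 4 of its probe sets, the brightest going from 9.54 to 8.75 (-0.79) and the others differing by between -0.60 and -0.59. A pair of these gave the same difference and so are not independent readings. PSENEN, a subunit of gamma-secretase, was higher in its 1 probe set (9.10 and 9.78, 0.68). The other gamma-secretase subunit genes differed in their brightest probe sets by -0.29 (NCSTN), -0.11 (APH1A), -0.03 (APH1B) and 0.21 (PSEN2). The remaining probe sets of NCSTN read -0.44 and -0.49, and the second PSEN2 probe set at or above the floor read 0.

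In the nuclear complex, 6 of 9 genes were below 0 and MAML2 was the 1 past 1.5-fold (median -0.18). RBPJ itself went from 11.18 to 11.00 (-0.18) in its brightest probe set, and the 5 others were all lower, by -0.27 to -0.49. Among 10 corepressor genes, 5 were below 0 and 5 above, with a median of 0.01 that turned to between -0.06 and -0.003 with the mean over all probe sets and under median, loess and poly-A centring. TLE2, a Groucho-type corepressor, was lower (7.47 and 6.87, -0.60). That reading was shared by its other probe sets, at -0.56 each, an equal difference and so no independent pair. HDAC1 had the highest difference of the corepressor genes, at 0.43 (10.97 and 11.40), in a probe set marked for possible cross-hybridisation. Its other probe sets read 0.50 and, below the floor, 0.

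Of the 14 genes of trafficking and ubiquitination at or above the floor, 4 were below 0 and 10 above, with a median of 0.05 that turned to -0.02 when centred on the poly-A controls. FBXW7, the ubiquitin ligase subunit that targets the Notch intracellular domain for breakdown, was lower in all 3 probe sets (-0.72, -0.65 and -0.57), the brightest going from 8.94 to 8.23. The name of that brightest probe set marks possible cross-hybridisation. DTX4, a Deltex-type ubiquitin ligase, went from 7.56 to 6.82 (-0.74) in its 1 probe set. The ligand-activating ubiquitin ligase gene MIB1 was lower by less, at -0.46 in its brightest probe set and between -0.43 and -0.24 in the 4 others. NUMBL had the highest difference of this list, at 0.47 (6.56 and 7.03), with 0.37 in its other probe set at or above the floor. Its dimmer probe sets read between -0.19 and 0.37.

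Of the enzymes that add sugars to the receptor, RFNG, radical fringe, differed by -0.42 (8.52 and 8.10) and by -0.33 in its other probe set, and MFNG, manic fringe, was below the floor at 6.05 and 6.09. The highest of the list was POFUT1, at 0.27 (8.62 and 8.89) in its brightest probe set and 0.40 and 0.13 in the others. The list's 5 genes at or above the floor had a median of -0.10, and LFNG was the 1 past 1.5-fold. Of 4 proposed noncanonical ligands at or above the floor, 2 were below 0 and 1 above (median -0.12), while DLK2 read the same on both arrays. DNER, a neuronal transmembrane protein with EGF-like repeats, was higher in both probe sets, from 6.66 to 7.52 (0.87) and from 6.66 to 7.45 (0.79). EGFL7, a secreted endothelial protein, was lower in its 3 probe sets (-0.31, -0.42 and -0.71), all marked for possible cross-hybridisation, and the microfibril gene MFAP2 differed by -0.24 in its brightest. The receptor NOTCH4 (5.71 and 5.85) and the ligands DLL3 (5.85 and 5.90) and DLL4 (5.61 and 5.61) were below the floor.

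The target genes had a median of -0.07 over 13 genes at or above the floor, and 9 of these were below 0. None reached 1.5-fold in either direction. HES1 had the lowest difference of them and HES7, a HES gene known from the segmentation clock, the next (8.13 and 7.75, -0.38). NRARP, a feedback inhibitor of Notch and a target gene, went from 7.49 to 7.34 (-0.15), and its dimmer probe set differed by -0.09. HEYL went from 7.42 to 7.51 (0.09), with dimmer probe sets between -0.06 and 0.50, and MYC from 11.34 to 11.52 (0.17). HES6 had the highest difference of the target genes (8.01 and 8.26, 0.25). SOX9 was higher in all 3 of its probe sets, by 0.16 in the brightest and up to 0.42. Both of these extremes were in probe sets marked for possible cross-hybridisation.

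The 10 genes differed in how far other settings moved them. LFNG stayed between -0.85 and -0.78 and MAML2 between -1.28 and -1.01 under every setting other than centring on the hybridisation controls. DLL1 moved to -0.20, NOTCH1 to -0.14, HES1 to -0.17 and HEY1 to -0.70 with the mean over all probe sets, and NOTCH3 turned from 0.14 to -0.43. JAG2 was -0.03 when centred on the poly-A controls and -0.47 when centred on the hybridisation controls.

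**Figure D4:**
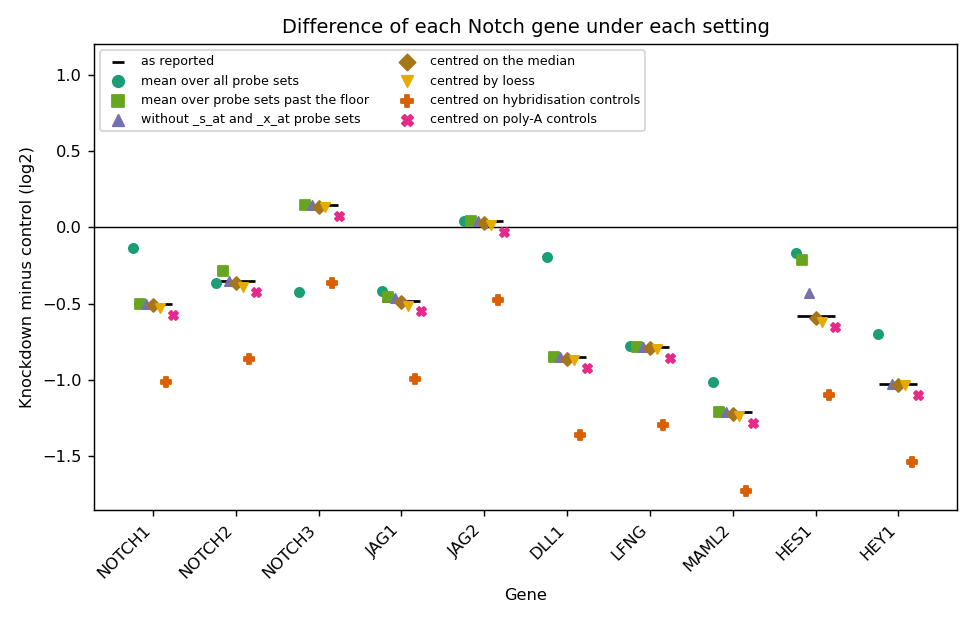
Difference between knockdown and control array (log2, vertical axis) of each of the 10 Notch genes under each setting, with a black bar for the value reported. The orange crosses, centred on the hybridisation controls, lie 0.51 below the bars, and the green circles, the mean over all probe sets, lie away from the bar for NOTCH1, NOTCH3, DLL1, HES1 and HEY1 and, by less, for MAML2.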

How the data were processed

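Each group, taken from the genotype labels, was 1 Affymetrix array of total RNA (2 arrays in all). The deposited values are log2 levels made with RMA, per the submitters' processing notes. RMA subtracts background, equalises the arrays and combines the probes of each set, so a shift common to most transcripts is removed. No software version or genome build is given in the sources used here.

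Of 49495 probe sets, 102 were controls and 45278 had 1 gene symbol in the platform annotation, updated through RefSeq (GRCh38.p14). Names ending in _s_at or _x_at mark possible cross-hybridisation, and _a_at marks transcripts of 1 gene. The gene rule, the floor at the median mean level and a threshold of 1.5-fold were applied in Python 3.11.15 with pandas 2.3.3. The code was tested on simulated data. No statistical test was run, because each group holds 1 array.

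The 10 genes and all lists were chosen with earlier results of these data known. Named besides them are UGT8, list genes past 1.5-fold, and otherwise the gene of a list with the largest difference. Genes set beside these for comparison (such as MAML1, RBPJ, MIB1, EGFL7 and DLL4), the promoter stretches and the neighbouring genes were chosen after the values were seen. Alternatives, 11 in all, changed 1 choice at a time: the threshold, the floor (none, 25th or 75th percentile), the probe sets, and the centring (median, loess with a fraction of 0.3, or spike-in controls).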

Additional observations from a re-analysis of the deposited data

How the results depend on the processing

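The number of Notch genes lower by at least the threshold was 3, and it was 1 at 2-fold (1.54% of all genes) or under a 75th percentile floor (6.68%) and 7 when centred on the hybridisation controls, where 37.1% of all genes were lower. It was 2 with the mean over all probe sets (5.14%), and 4 without a floor (4.39%), under the 25th percentile floor (5.41%) and centred on the median (6.96%), by loess (7.34%) or on the poly-A controls (8.58%). No Notch gene was higher by the threshold under any of the 11 alternatives. The median of the Notch genes was -0.37 with the mean over all probe sets and -1.02 when centred on the hybridisation controls, and that centring lowers every value by 0.51 by construction. Under it the list medians were -0.87 for receptors, -0.99 for ligands, -0.63 for noncanonical ligands, -0.61 for glycosylation, -0.64 for cleavage, -0.70 for the nuclear complex, -0.51 for corepressors, -0.46 for trafficking and -0.58 for target genes. Both without a floor and under a 25th percentile floor, the receptors had a median of -0.11 and the ligands of 0.0046, as dim genes were added. The noncanonical ligands then had 0.040 without a floor and 0 under the 25th percentile floor. A 75th percentile floor leaves fewer genes, and the median was then -0.27 for noncanonical ligands, 0.27 for glycosylation and -0.047 for the nuclear complex. The ligand median was -0.20 with the mean over all probe sets. Without probe sets marked for possible cross-hybridisation the median was 0 for noncanonical ligands, -0.26 for glycosylation and -0.28 for the nuclear complex. This setting also left fewer genes at or above the floor, 8904 in place of 10439. The cause of these shifts was not tested. A value was taken as moved when it shifted by more than 0.0832, the typical SD among a gene's probe sets, which is no replicate error. No paired analysis was possible because each group holds 1 array. Readings near the background mean of 4.73, as for HEY1, limit what can be said of dim genes.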

Other observations

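Genes at or above the floor near MAML2 did not share its size of difference. The nearest 5 such genes on each side in RefSeq's gene order were taken, and genes below the floor were passed over. They had a median of -0.10 and ranged from -0.60 (ARHGAP42) to 0.43, against -1.21 for MAML2. The 10 neighbours of LFNG had a median of 0.10 and ranged from -0.38 to 0.48, and none reached 1.5-fold in either direction.

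Around DLL1 (-0.85), 9 neighbours at or above the floor had a median of -0.06. Of these, 2 were lower by at least 1.5-fold, THBS2 (-0.79) and PHF10 (-0.77), where 6.74% of all genes were. Around JAG1 the median of 10 neighbours was 0.24, with FERMT1 at 1.51 and TMX4 (-0.997) and ISM1 (-0.97) lower. Around HES1 the median was -0.10, with IL1RAP at -1.33 and FAM43A at -0.61. Around HEY1 (-1.03) the median was 0.09, with JPH1 (0.60) and GDAP1 (1.56) higher. The neighbours of NOTCH1 had a median of 0.23 and those of JAG2 of 0.19, each with 1 gene higher by at least 1.5-fold. Those of NOTCH2 (-0.01) and NOTCH3 (0.01) had none past that size. Over all genes, 6.74% were lower and 4.96% higher by at least 1.5-fold. These neighbours were looked up after the values of the 10 genes were known.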
